A study of Homo sapiens with 9 samples.

Results

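The cytosolic chaperonin CCT and the mitochondrial chaperonin pair HSP60 and HSP10 were followed in LNCaP cells through the 10 genes that encode their subunits, TCP1, CCT2, CCT3, CCT4, CCT5, CCT6A, CCT7 and CCT8 for CCT, HSPD1 for HSP60 and HSPE1 for HSP10. All probe sets annotated to 1 of these genes alone were taken, which gave 16 of the 22215 probe sets on the array and all 10 genes among the 12165 genes measured. No probe set annotated to several genes included one of them. TCP1 had 3 probe sets, CCT2, CCT6A, CCT8 and HSPD1 had 2 each, and the other 5 genes had 1. A gene was represented by its brightest probe set.

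LNCaP is a human prostate carcinoma cell line whose growth depends on androgen. Before treatment the cells of all groups spent 2 days in RPMI with 10% charcoal-stripped serum, which lacks most steroid hormones. The androgen plus celastrol group received 1 nM of the synthetic androgen R1881 with 1.25 µM celastrol, a plant triterpenoid, for 24 h. The androgen group received 1 nM R1881 with DMSO, and the vehicle group ethanol and DMSO for 24 h. Each group had 3 arrays. The titles of the androgen arrays give 6 h, whereas their descriptions and the treatment protocol give 24 h, so duration may differ from the other groups in every comparison that uses the androgen arrays. The comparison of androgen plus celastrol with vehicle does not depend on it. The labels call the arrays biological replicates without saying how the cultures were kept apart, so p-values measure the spread between these samples, which may be technical.

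CCT, also called TRiC, is a double ring in which 8 related subunits each hold a fixed place. It binds newly made proteins, above all actins and tubulins, and uses ATP to close over them while they fold. HSP60 forms a comparable ring in the mitochondrial matrix, where HSP10 is its lid, and receives imported proteins after the mitochondrial HSP70 machinery. Genes of both systems belong to those known to respond to protein folding stress.

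The 8 measured prostate luminal markers averaged between 1627 and 12891 intensity, with FOLH1 the brightest. All 17 measured markers of basal, stromal, immune and endothelial cells lay between 20.6 and 298 on every array. Array medians lay between 72.2 and 80.2. The summed luminal markers reached 39223 to 42664 with androgen plus celastrol, 51888 to 55459 with androgen and 29393 to 30361 with vehicle, and the summed stromal markers 348 to 430 with androgen plus celastrol, 454 to 506 with androgen and 413 to 436 with vehicle. Summed immune markers were 212 to 238 with androgen plus celastrol, 194 to 209 with androgen and 202 to 228 with vehicle. Summed endothelial markers were 95.2 to 145 with androgen plus celastrol, 101 to 130 with androgen and 167 to 233 with vehicle. Means of single basal, immune and endothelial marker genes reached at most 42.0, 57.8 and 70.4, below the median of every array, and those of stromal genes at most 189. The part of these markers in the results was not tested, and fewer cells of a type and less RNA per cell cannot be told apart. Whether androgen or celastrol changed the marker genes themselves was not tested either, so the sums do not measure cell composition. Vehicle array 3 stood apart, with an upper quartile of 332 intensity where the other 8 arrays had 377 to 409, and values against vehicle are given below with and without it.

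With celastrol added to androgen, 5 of the 8 CCT subunits fell and neither mitochondrial chaperonin gene passed the threshold. TCP1, CCT2, CCT3, CCT4 and CCT6A fell against androgen alone, and the same 5 fell against vehicle. CCT2 fell most, by 0.68 on the log2 scale against androgen. CCT5, CCT7, CCT8, HSPD1 and HSPE1 did not pass the threshold, an adjusted p of 0.05 in limma with Benjamini-Hochberg adjustment over all 12165 genes. Androgen itself moved none of the 10 past it.

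**Figure D1:**
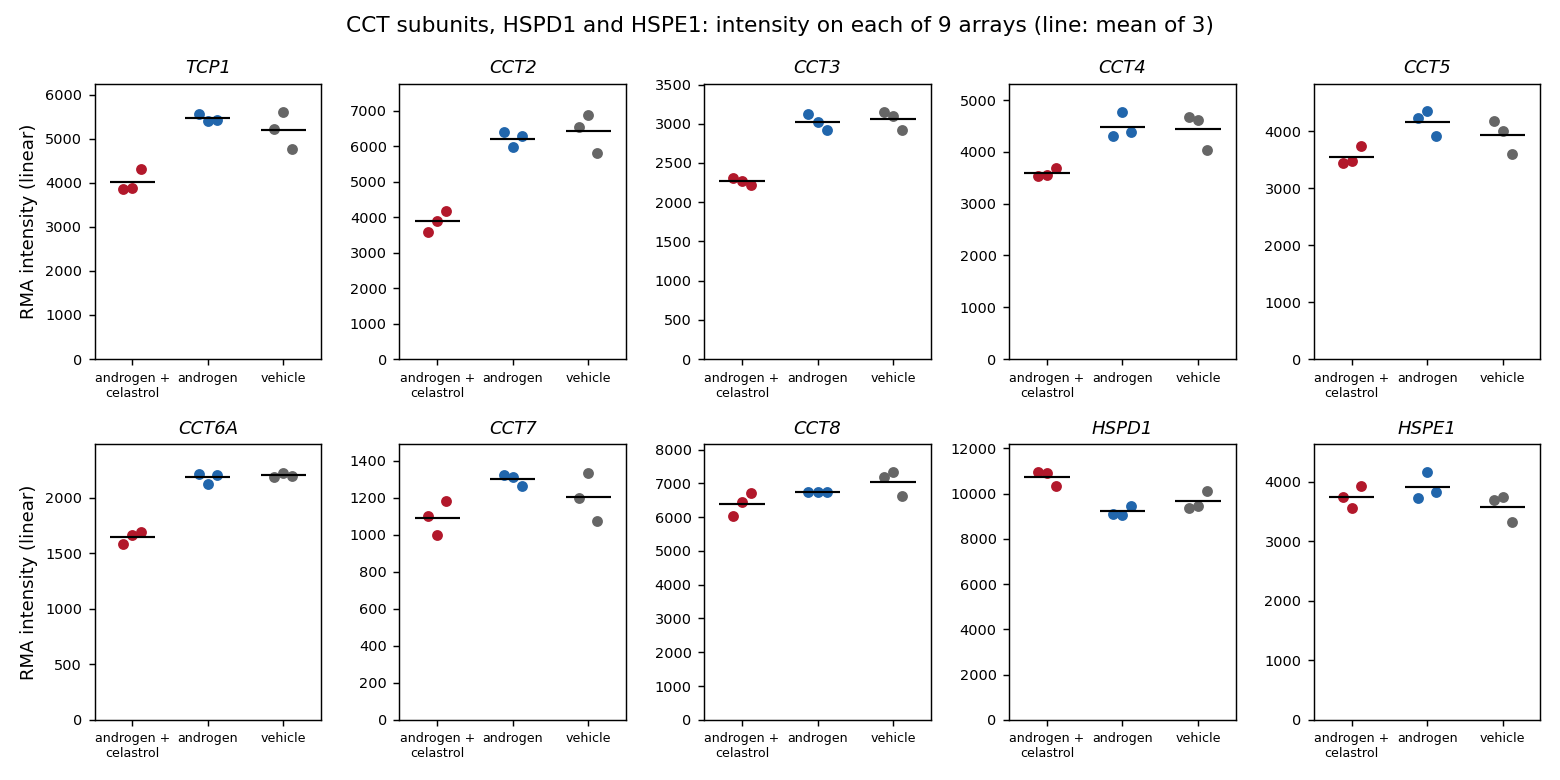
Intensity of the 10 chaperonin genes on each of the 9 arrays, on a linear scale that starts at 0. Points are arrays and lines are the means of 3 arrays in the androgen plus celastrol, androgen and vehicle groups. All 3 androgen plus celastrol arrays of CCT2 lie between 3590 and 4177, below the 5819 to 6894 of the other 6 arrays, whereas those of HSPD1 lie at the top of its panel.

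CCT2 encodes the beta subunit and lies on chromosome 12. Its intensity was 3590, 3894 and 4177 on the androgen plus celastrol arrays, 6391, 5981 and 6277 on the androgen arrays and 6556, 6894 and 5819 on the vehicle arrays. The 3 arrays with celastrol were lower than every other array, at 55.9% to 65.0% of the vehicle mean. The mean was 3887 ± 294 with androgen plus celastrol and 6216 ± 212 with androgen (SD, n = 3 arrays each), a log2 fold change of -0.68 ± 0.09 (SE, limma adjusted p = 0.00150). Against vehicle it was -0.72 (limma adjusted p = 0.000610), and -0.79 without vehicle array 3 (adjusted p = 0.000377). RefSeq gives CCT2 a pair of start sites, and the window of the upstream one is shown because this was the subunit that fell most. It covers 250 bases before to 50 bases after the start at chr12:69585209-69585508 on the plus strand of GRCh38.p14. Capitals mark, in order, a CCAAT box and an ETS site.
CCT2: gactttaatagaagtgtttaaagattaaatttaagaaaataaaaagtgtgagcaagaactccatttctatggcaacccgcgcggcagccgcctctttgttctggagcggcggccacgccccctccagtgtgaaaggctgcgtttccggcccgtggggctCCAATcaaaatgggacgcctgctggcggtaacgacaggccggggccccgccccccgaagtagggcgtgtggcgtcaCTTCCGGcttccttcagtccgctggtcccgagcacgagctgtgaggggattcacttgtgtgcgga

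TCP1 encodes the alpha subunit and lies on chromosome 6. Its intensity was 3865, 3877 and 4320 with androgen plus celastrol, 5552, 5413 and 5415 with androgen and 5230, 5596 and 4771 with vehicle. The groups with and without celastrol did not overlap. The mean of 4021 ± 259 with androgen plus celastrol stood against 5460 ± 80.0 with androgen (SD, n = 3 arrays each), a log2 fold change of -0.44 ± 0.09 (limma adjusted p = 0.00839). Against vehicle it fell by 0.37 (limma adjusted p = 0.0142), and by 0.43 without vehicle array 3 (adjusted p = 0.00608). The fall against vehicle no longer passed without androgen plus celastrol array 2 (limma adjusted p = 0.0525).

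CCT3 encodes the gamma subunit and lies on chromosome 1. It read 2312, 2271 and 2224 with androgen plus celastrol, 3119, 3027 and 2922 with androgen and 3146, 3101 and 2922 with vehicle. The 6 arrays without celastrol fell within a narrow band above the 3 with it. The log2 fold change was -0.41 ± 0.07 against androgen (limma adjusted p = 0.00462), from means of 2269 ± 44.2 with androgen plus celastrol and 3022 ± 98.7 with androgen (SD, n = 3 arrays each). Against vehicle it was -0.43 (limma adjusted p = 0.00245), and -0.46 without vehicle array 3.

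CCT6A, on chromosome 7, encodes the zeta subunit found in most tissues. Its intensity was 1580, 1666 and 1689 with androgen plus celastrol, 2213, 2122 and 2205 with androgen and 2187, 2221 and 2197 with vehicle. Arrays with and without celastrol were again apart, and those without it differed little among themselves. Means of 1645 ± 57.5 with androgen plus celastrol and 2180 ± 50.3 with androgen (SD, n = 3 arrays each) gave a log2 fold change of -0.41 ± 0.07 (limma adjusted p = 0.00416). Against vehicle the change was -0.42 (limma adjusted p = 0.00224), and again -0.42 without vehicle array 3.

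CCT4 encodes the delta subunit and lies on chromosome 2. It had 3531, 3556 and 3696 with androgen plus celastrol, 4302, 4773 and 4392 with androgen and 4669, 4614 and 4028 with vehicle. The celastrol arrays were the lowest 3, but the distance to the next array was small beside the spread of the vehicle arrays. CCT4 fell by 0.32 ± 0.09 on the log2 scale against androgen (limma adjusted p = 0.0361) and by 0.30 against vehicle (adjusted p = 0.0345), or by 0.37 without vehicle array 3. This was the least secure of the 5 falls. Each comparison lost the call in 7 of the 9 fits that left out 1 array. Against androgen these were all 3 androgen plus celastrol arrays, all 3 androgen arrays and vehicle array 1, with adjusted p up to 0.136. Against vehicle they were all 3 androgen plus celastrol arrays, androgen arrays 1 and 3 and vehicle arrays 1 and 2, with adjusted p up to 0.112.

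CCT8 encodes the theta subunit and lies on chromosome 21. Its intensity was 6027, 6437 and 6712 with androgen plus celastrol, 6756, 6733 and 6738 with androgen and 7182, 7349 and 6621 with vehicle. The androgen arrays were nearly alike, with a coefficient of variation of 0.18%, and the highest celastrol array came close to them. The log2 fold change was -0.08 ± 0.08 against androgen (limma adjusted p = 0.605) and -0.14 against vehicle (adjusted p = 0.236), or -0.19 without vehicle array 3 (adjusted p = 0.126). Of the 8 subunits it had the smallest measured change against androgen, and its window, chr21:29073599-29073898 on the minus strand of GRCh38.p14, is shown for contrast with that of CCT2, with a CCAAT box in capitals (read on the other strand).
CCT8: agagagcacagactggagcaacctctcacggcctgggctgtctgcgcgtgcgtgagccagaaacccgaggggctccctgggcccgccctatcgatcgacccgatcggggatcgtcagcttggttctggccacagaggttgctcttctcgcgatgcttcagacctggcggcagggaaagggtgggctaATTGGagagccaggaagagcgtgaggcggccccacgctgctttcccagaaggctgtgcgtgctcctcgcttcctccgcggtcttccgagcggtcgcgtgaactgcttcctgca

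CCT5, the epsilon subunit on chromosome 5, read 3441, 3477 and 3750 with androgen plus celastrol, 4235, 4354 and 3919 with androgen and 4187, 3999 and 3610 with vehicle. CCT7, the eta subunit on chromosome 2, read 1098, 996 and 1181 with androgen plus celastrol, 1320, 1312 and 1262 with androgen and 1198, 1335 and 1074 with vehicle. Both were lower on the celastrol arrays than on every androgen array, while their celastrol and vehicle arrays overlapped. Their log2 fold changes against androgen were -0.23 ± 0.09 for CCT5 (limma adjusted p = 0.127) and -0.25 ± 0.10 for CCT7 (adjusted p = 0.150). Against vehicle both were -0.14, with adjusted p of 0.283 for CCT5 and 0.379 for CCT7. Without vehicle array 3 these changes were -0.20 for CCT5 (limma adjusted p = 0.125) and -0.22 for CCT7 (adjusted p = 0.156).

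Counted together, 5 of the 8 CCT subunits fell with celastrol against androgen and 0 rose, where 7.24% of all genes fell and 9.0% rose. At an unadjusted p under 0.05 in limma, 7 of the 8 were lower and 0 higher. The shares of all genes just given are for adjusted calls and are no background for this count. Far more genes pass the unadjusted cutoff. CCT7, at an unadjusted limma p of 0.0361 against androgen, ranked 2934 by p among all 12165 genes, both directions together. The median log2 fold change of the 8 was -0.36, beside 0.02 for all genes. Against vehicle the count was again 5 of 8 with a median of -0.34, where 10.0% of all genes fell, 13.3% rose and the median of all genes was -0.01. With celastrol, every array lay on 1 side of all androgen arrays for 9 of the 10 chaperonin genes, and of all vehicle arrays for 6, where 35.9% and 37.2% of all genes were so separated. These 2 comparisons share the androgen plus celastrol arrays.

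Measured changes of the subunits against androgen spanned -0.68 for CCT2 to -0.08 for CCT8. Relative to the mean of the other 7 subunits on the same arrays, CCT2 had a difference in log2 fold change of -0.37 against androgen and -0.45 against vehicle. For CCT8 it was 0.31 against androgen and 0.22 against vehicle. These were the extremes, named after their values were seen. For CCT5 the difference was 0.14 against androgen and 0.22 against vehicle. Such contrasts were computed for 9 quantities per comparison, the 8 subunits and HSPD1 minus HSPE1. They were tested with an exact permutation test alone, which with 3 arrays against 3 cannot go below 0.1. This test therefore cannot decide whether the subunits differ in their response. CCT2 minus the other 7 was 0.39 to 0.52 on the androgen plus celastrol arrays and 0.77 to 0.89 on the androgen arrays. For CCT8 these ranges were 1.25 to 1.34 and 0.97 to 1.01.

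Androgen against vehicle, the comparison of the hormone alone, gave 0 of 10 genes past the threshold in limma and 0 at an unadjusted p under 0.05, where 13.0% of all genes were called. Log2 fold changes lay between -0.07 for HSPD1 and 0.13 for HSPE1, with limma adjusted p from 0.466 to 0.936. The median of the 8 CCT subunits was 0.00, beside -0.04 for all genes. Androgen and vehicle arrays overlapped for all 10 genes, whereas 28.3% of all genes had arrays that did not. Within same-numbered pairs, HSPD1 was lower with androgen in 3 of 3 pairs, and CCT5 and HSPE1 were higher in 3 of 3. How many of all genes had 3 pairs one way was not counted, so these pairs are a description only. A block by replicate number over all arrays also matched the androgen plus celastrol arrays, which were not taken as paired. In that fit none of the 3 genes passed (limma adjusted p = 0.695 for HSPD1, 0.667 for CCT5 and 0.519 for HSPE1). With the block on the androgen and vehicle arrays alone, limma again called 0 of the 10 genes. Without vehicle array 3 the 10 changes lay between -0.11 for CCT2 and 0.07 for HSPE1, and 0 were called. The 95% intervals of the 10 changes, from the fit without the block, show what size could have been missed. CCT7 had the widest, from -0.12 to 0.35 on the log2 scale.

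**Figure D2:**
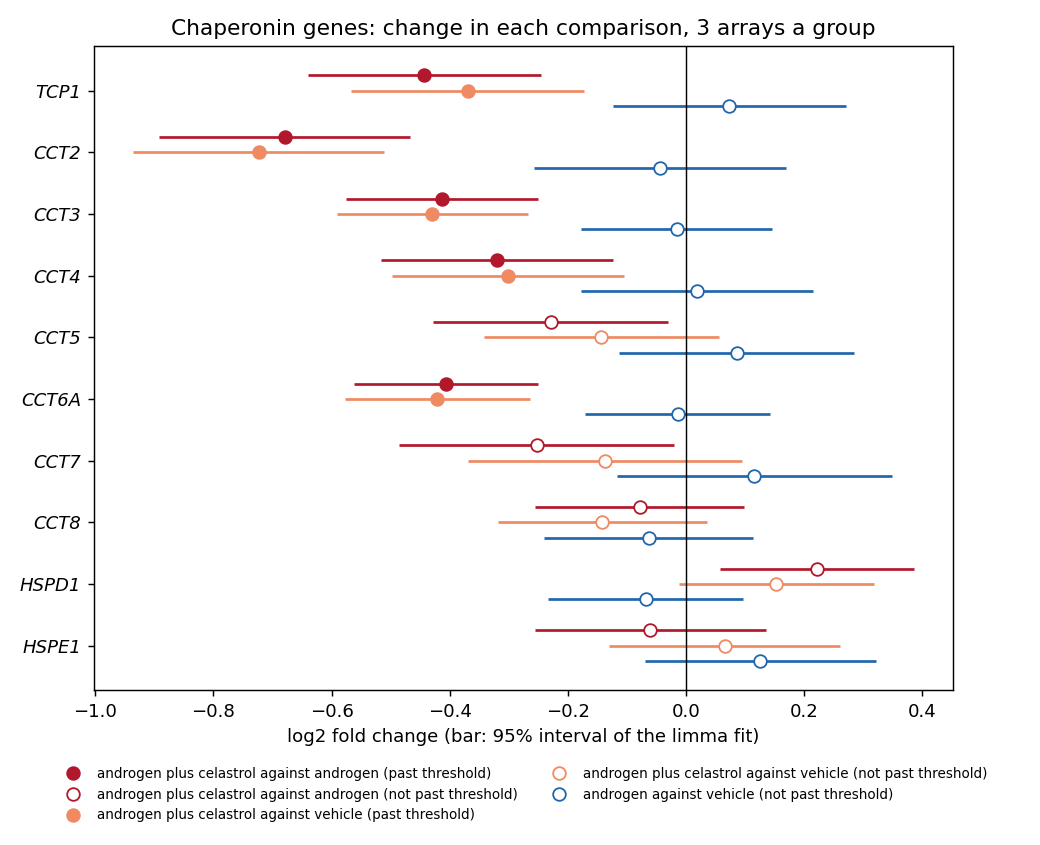
Log2 fold change of each chaperonin gene (horizontal axis) with its 95% interval in 3 comparisons: androgen plus celastrol against androgen, androgen plus celastrol against vehicle, and androgen against vehicle. Filled points passed the adjusted p of 0.05. TCP1, CCT2, CCT3, CCT4 and CCT6A are filled in both celastrol comparisons, and all 10 intervals of androgen against vehicle include 0.

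HSPD1 encodes HSP60. It lies on chromosome 2, and its intensity was 10978, 10925 and 10335 with androgen plus celastrol, 9106, 9070 and 9467 with androgen and 9384, 9471 and 10140 with vehicle. All 3 celastrol arrays were above all 6 others, by a small margin over vehicle array 3. Means of 10746 ± 357 with androgen plus celastrol and 9214 ± 219 with androgen (SD, n = 3 arrays each) gave a log2 fold change of 0.22 ± 0.07, which did not pass (limma adjusted p = 0.0758). Without vehicle array 3 the same change passed (limma adjusted p = 0.0441). Against vehicle it was 0.15 (limma adjusted p = 0.173), and 0.19 without that array (adjusted p = 0.104).

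The second HSPD1 probe set, 200806_s_at, read 9032, 9156 and 8544 with androgen plus celastrol, 7595, 7014 and 7223 with androgen and 7153, 7228 and 7662 with vehicle. Here too the 3 celastrol arrays were the highest. In a fit over all 22215 probe sets it rose by 0.29 ± 0.08 against androgen (limma adjusted p = 0.0394) and by 0.28 against vehicle (adjusted p = 0.0349), where 6.91% and 11.1% of all probe sets rose. In 8 of the 9 fits that left out 1 array, all except the one without vehicle array 3, no probe set of the 10 genes rose in either comparison. The brighter HSPD1 probe set, 200807_s_at, changed by 0.22 in the same fit and did not pass (limma adjusted p = 0.102).

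HSPE1, which encodes the lid protein HSP10, read 3741, 3565 and 3939 with androgen plus celastrol, 3729, 4168 and 3831 with androgen and 3691, 3741 and 3319 with vehicle. The 3 groups overlapped throughout. Its log2 fold change was -0.06 ± 0.09 against androgen (limma adjusted p = 0.730) and 0.07 against vehicle (adjusted p = 0.621), the second being 0.01 without vehicle array 3 (adjusted p = 0.946). The difference between the changes of HSPD1 and HSPE1, computed array by array, was 0.28 against androgen and 0.09 against vehicle. It was -0.19 for androgen against vehicle. In this difference the androgen arrays were apart from those of both other groups, while the androgen plus celastrol and vehicle arrays overlapped.

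HSPD1 and HSPE1 lie head to head on chromosome 2, so the windows around their starts are shown side by side. They come from RefSeq on GRCh38.p14 and run from 250 bases before to 50 bases after a start. The first HSPD1 window is chr2:197499791-197500090 on the minus strand, and the HSPE1 window is chr2:197500129-197500428 on the plus strand. Capitals mark an 18 base run of 4 alternating heat shock element units in HSPD1, read as TTC or GAA with a pair of bases between them, and an E-box (CACGTG) in HSPE1.
HSPD1: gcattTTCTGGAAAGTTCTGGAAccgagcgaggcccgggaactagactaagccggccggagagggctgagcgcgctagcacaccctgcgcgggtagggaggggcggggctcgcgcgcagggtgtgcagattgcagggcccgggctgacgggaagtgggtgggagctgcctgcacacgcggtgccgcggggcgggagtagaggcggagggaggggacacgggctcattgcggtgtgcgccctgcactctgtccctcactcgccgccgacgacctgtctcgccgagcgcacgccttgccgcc
HSPE1: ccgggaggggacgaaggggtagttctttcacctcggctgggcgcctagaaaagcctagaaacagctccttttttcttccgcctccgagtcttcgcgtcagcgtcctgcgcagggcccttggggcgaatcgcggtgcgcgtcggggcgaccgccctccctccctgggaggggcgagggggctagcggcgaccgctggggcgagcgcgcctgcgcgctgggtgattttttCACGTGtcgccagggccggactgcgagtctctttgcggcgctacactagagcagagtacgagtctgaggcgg

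The 4-unit run lies at chr2:197500068-197500085, from 245 to 228 bases before the HSPD1 start and 294 bases from the HSPE1 start, which puts it 43 bases outside the HSPE1 window. Of all 35116 windows, 12 held a run of at least 4 units, a share of 0.0342%, and these 12 belonged to 12 genes. The other HSPD1 start has a window that shares 204 bases with that of HSPE1, and the E-box is in the shared stretch. A match is a description of letters, not of binding.

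Motifs were searched on both strands in 12 windows of 9 of the 10 genes. A heat shock element pair, GAANNTTC or TTCNNGAA, was in 4 of the 12 windows, and in 13.5% of all windows. TCP1 held GAAGGTTC, the downstream CCT2 window GAAATTTC and 1 of the CCT4 windows TTCTGGAA. Heat shock elements of 3 units were in 1 of the 12, the first HSPD1 window, and in 0.49% of all windows. A CCAAT box was in 4 of 12, in TCP1, CCT2, CCT3 and CCT8, beside 34.6% of all windows. The E-box was in 2 of 12 (7.26% of all windows), the ETS letters CCGGAAG in 1 (10.3%) and the amino acid response element TGATGNAA in 0 (3.62%). The windows of subunits that fell and of those that did not pass both included some with a CCAAT box, and both CCT5 and CCT7 held none of the letters searched.

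**Figure D3:**
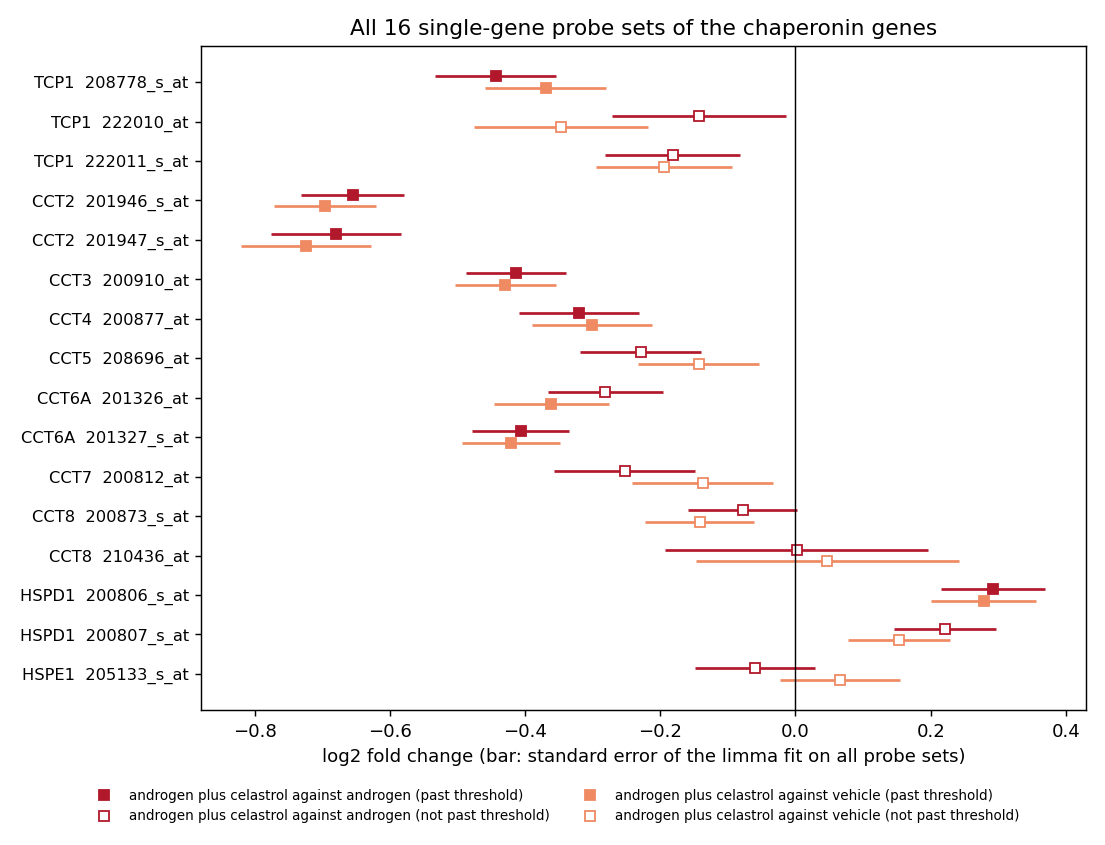
Log2 fold change (horizontal axis) with its standard error for all 16 single-gene probe sets of the 10 genes, for androgen plus celastrol against androgen and against vehicle. Filled squares passed the adjusted p of 0.05 over all probe sets. Both CCT2 probe sets lie near -0.7, both CCT6A sets below 0, and both HSPD1 sets above 0.

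Second probe sets mostly repeated the direction of the brightest one. Of the 16 probe sets 6 fell and 1 rose against androgen, and 7 fell and 1 rose against vehicle, where 5.66% and 7.94% of all probe sets fell. The 2 sets of CCT2 changed by -0.66 (201946_s_at, limma adjusted p = 0.000714) and -0.68 (201947_s_at, adjusted p = 0.00202) against androgen. The dimmer set of CCT6A, 201326_at, read 1208, 1225 and 1199 with androgen plus celastrol and 1500, 1433 and 1482 with androgen, a change of -0.28 that did not pass (limma adjusted p = 0.0664), while against vehicle it fell by 0.36 (adjusted p = 0.0167). For TCP1 the brightest set, 208778_s_at, fell by 0.44 (limma adjusted p = 0.0117), but 222010_at changed by -0.14 (adjusted p = 0.598) and 222011_s_at by -0.18 (adjusted p = 0.340). The second CCT8 set, 210436_at, lay between 25.6 and 43.1, below the median of every array, and carries little information. Androgen against vehicle had 0 of 16 probe sets called, beside 10.5% of all probe sets.

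Processed pseudogenes are a limit on these probe sets. The RefSeq gene table names 28 pseudogenes after HSPE1, 22 after HSPD1, 5 after CCT6A, 3 after TCP1, 2 each after CCT4, CCT5 and CCT7, 1 each after CCT3 and CCT8, and 0 after CCT2. Whether their transcripts reached the probes was not tested.

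The genes whose profile over the 9 arrays was most like the mean CCT profile were RAN, a GTPase of nuclear transport, CKS2, a partner of cyclin-dependent kinases, ECHS1, an enzyme of mitochondrial fatty acid oxidation, ADSL, an enzyme of purine synthesis, and TRA2B, a splicing factor. Their root mean squared difference from it was 0.0384 log2 units for RAN and 0.0522 for TRA2B, where the CCT profile itself varied by 0.17. RAN changed by -0.37 with celastrol against androgen and by 0.01 with androgen against vehicle. These genes were picked by that likeness, so their changes are a description.

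Around the chaperonins, prefoldin and the phosducin-like cofactors hand substrates to CCT. Of 12 such genes 10 were measured. For all the lists that follow, the shares over all genes are the 9.0% that rose and 7.24% that fell against androgen, the 13.3% and 10.0% against vehicle and the 13.0% called for androgen alone. A count of 1 in a list of 9 to 17 genes is near these shares. They are shares of adjusted calls. More genes pass an unadjusted p under 0.05, so counts at that cutoff have a larger background, whose share is not given. URI1, a prefoldin-like subunit, was the 1 that fell against androgen, with 1883 ± 111 with androgen plus celastrol and 2647 ± 107 with androgen (SD, n = 3 arrays each, log2 fold change -0.49, limma adjusted p = 0.00288), and 0 rose, or 1 at an unadjusted p under 0.05. PFDN2, a canonical prefoldin subunit, changed by -0.05 (adjusted p = 0.841). The median of the 10 was 0.09. Against vehicle PFDN6 and TXNDC9 rose, by 0.77 and 0.59, and URI1 and VBP1 fell, by 0.53 and 0.37. PFDN6 differed by 0.71 between androgen and vehicle already (adjusted p = 0.0549) and by 0.06 between androgen plus celastrol and androgen. Its call was lost without androgen plus celastrol array 1 or 2 or vehicle array 2, and that of VBP1 without androgen plus celastrol array 2 or vehicle array 1. TXNDC9, a negative regulator of CCT folding, was also the 1 of the 10 that rose with androgen alone, by 0.47 (limma adjusted p = 0.0125), a call lost without androgen array 1 (adjusted p = 0.0584).

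Among relatives of the CCT subunits none passed the threshold. CCT6B, the testis form of the zeta subunit, read 203, 233 and 269 with androgen plus celastrol and 201, 171 and 145 with androgen. The lowest celastrol array stayed above the highest androgen array, but the log2 fold change of 0.45 did not pass (limma adjusted p = 0.0701), except without androgen array 1 (adjusted p = 0.0463). MKKS and BBS10, chaperonin-like proteins linked to Bardet-Biedl syndrome, changed by 0.17 and 0.08 and did not pass. None of the 3 measured paralogues was called in any comparison with limma, and 1 was higher at an unadjusted p under 0.05 against androgen.

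Of 17 genes of actin, tubulin and tubulin cofactors, which include the main substrates of CCT, 3 rose, 2 fell and 12 did not pass against androgen, with a median of 0.02. The 5 with the highest mean intensity, ACTB, ACTG1, TUBB, TUBA1B and TUBA1C, were among the 12. TUBA4A read 1942, 2091 and 2186 with androgen plus celastrol and 872, 1005 and 853 with androgen, a rise of 1.19 ± 0.10 (limma adjusted p = 0.000122), whereas it fell by 0.51 with androgen against vehicle (adjusted p = 0.00905). TUBB2A rose by 0.85 (adjusted p = 0.000252), and TBCE, a cofactor that assembles tubulin dimers, by 0.49 (adjusted p = 0.00311). TUBA1A moved the other way, with 1330, 1154 and 1306 with androgen plus celastrol, 2875, 2758 and 2406 with androgen and 4820, 4917 and 4476 with vehicle. It was lower with androgen than with vehicle and lower again with celastrol, with a log2 fold change of -1.08 against androgen (limma adjusted p = 0.000175) and of -1.91 against vehicle (adjusted p = 5.55e-06). TUBG1, gamma-tubulin of the centrosome, fell by 0.33 (adjusted p = 0.0342), rose by 0.48 with androgen against vehicle (adjusted p = 0.00652), and was 0.15 higher with androgen plus celastrol than with vehicle, which did not pass (adjusted p = 0.264). The fall was lost in 6 of 9 fits without 1 array, all but those without androgen plus celastrol array 3 or vehicle array 2 or 3. ACTB and ACTG1 changed by -0.06 and 0.01, and TUBB by -0.24 (adjusted p = 0.104). Tubulin genes are so alike that signal may be shared between them.

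Other proteins known to need CCT include cell cycle and signalling factors, of which 9 of 10 were measured. CDC20, the activator of the anaphase-promoting complex, read 303, 308 and 391 with androgen plus celastrol and 740, 677 and 642 with androgen, and fell by 1.05 ± 0.11 (limma adjusted p = 0.000381). PLK1, the mitotic kinase, fell by 0.92 (adjusted p = 0.00273). Both are genes of dividing cells, and both also fell against vehicle, by 0.81 and 0.80. None of the 9 rose against androgen in limma, nor at an unadjusted p under 0.05, and the median was -0.21, beside 0.02 for androgen plus celastrol against vehicle and 0.10 for androgen against vehicle. Against vehicle 4 fell, with CCNE1, a G1 cyclin, at -0.38 and GNB1, a G protein subunit, at -0.31 besides CDC20 and PLK1. With androgen against vehicle STAT3, a signalling transcription factor, rose by 0.32 (adjusted p = 0.0358) and CCNE1 fell by 0.39 (adjusted p = 0.0112). STAT3 lost its call in 7 of the 9 fits without 1 array (all but those without androgen plus celastrol array 1 or vehicle array 3), GNB1 in 6 (all but those without androgen array 3 or vehicle array 1 or 2) and CCNE1 without androgen array 2.

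In the mitochondrial matrix, the partners of HSP60 included genes that rose. Of 13 measured chaperones and proteases, 3 rose against androgen and 0 fell, or 1 at an unadjusted p under 0.05, and the median was 0.13. LONP1, the ATP-dependent protease of the matrix, read 1431, 1421 and 1591 with androgen plus celastrol, 918, 861 and 829 with androgen and 920, 922 and 678 with vehicle. DNAJA3, the DNAJ partner of the mitochondrial HSP70, read 1228, 1387 and 1274 with androgen plus celastrol, 874, 889 and 845 with androgen and 835, 724 and 715 with vehicle. HSPA9, the mitochondrial HSP70 itself, read 4214, 3770 and 4347 with androgen plus celastrol, 2997, 2923 and 3067 with androgen and 2806, 2869 and 2544 with vehicle. Celastrol arrays were the highest 3 for each of these genes. LONP1 rose by 0.77 ± 0.13 (limma adjusted p = 0.00378), DNAJA3 by 0.57 ± 0.09 (adjusted p = 0.00277) and HSPA9 by 0.45 ± 0.09 (adjusted p = 0.00731) against androgen. CLPP, the proteolytic subunit of the other matrix protease, changed by -0.27 (adjusted p = 0.303). GRPEL1, the exchange factor of HSPA9, rose by 0.44 with androgen against vehicle (adjusted p = 0.00862) and by 0.72 with androgen plus celastrol against vehicle (adjusted p = 0.000376). Against vehicle 4 of the 13 rose, and TRAP1, the mitochondrial HSP90, fell by 0.40 (adjusted p = 0.0362), a call lost in 7 of 9 fits without 1 array, all but those without androgen plus celastrol array 3 or vehicle array 3.

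Protein import into mitochondria brings HSP60 its substrates. Against androgen 1 of 12 measured genes moved, TOMM34, which fell by 0.61 (limma adjusted p = 0.0204), and 0 rose, also at an unadjusted p under 0.05. TOMM34 is a cytosolic co-chaperone of import. TOMM20, a receptor of the outer membrane, changed by -0.17 and TIMM17A, a channel subunit of the inner membrane, by -0.05, and neither passed. Against vehicle TIMM8A rose by 0.64, TIMM10 by 0.49 and TIMM17A by 0.29. TIMM8A and TIMM17A had also risen with androgen alone, by 0.59 and 0.34. The 1 gene that fell against vehicle was again TOMM34, by 0.93 (limma adjusted p = 0.00171). The fall of TOMM34 against androgen was lost without androgen plus celastrol array 2 or any androgen array, while that against vehicle was kept. The rise of TIMM8A against vehicle was lost without androgen plus celastrol array 2 or 3, and that with androgen alone also without any androgen array. TIMM17A lost its call in 4 of 9 such fits in each comparison, for androgen without androgen array 1 or 3 or vehicle array 1 or 2, and for androgen plus celastrol without its array 1 or 2 or vehicle array 1 or 2.

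**Figure D4:**
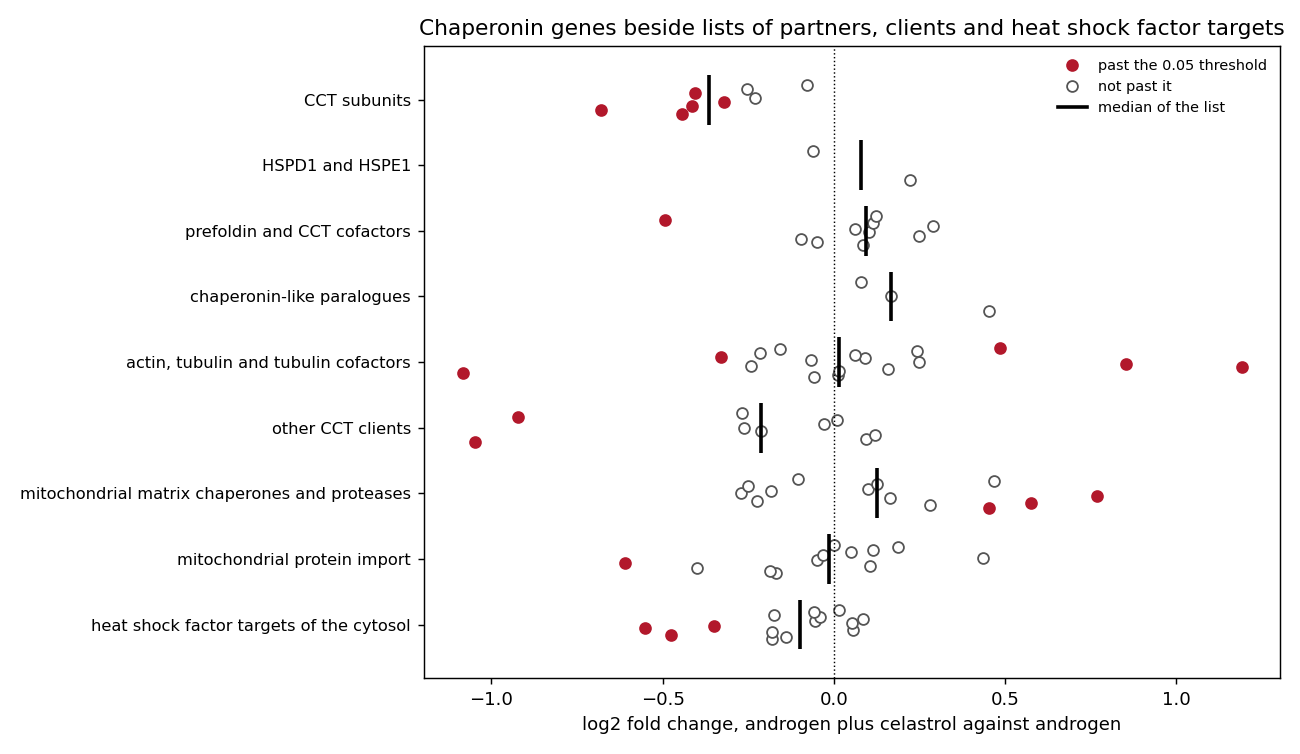
Log2 fold change for androgen plus celastrol against androgen (horizontal axis) of each measured gene in the chaperonin group and 7 lists of related genes (rows). Red points passed the adjusted p of 0.05, open points did not, and black bars are medians. All 8 CCT subunits lie below 0 with a median of -0.36, whereas the matrix chaperones and proteases have a median of 0.13 and 3 genes that rose.

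Targets of heat shock factor in the cytosol, the class to which chaperonin genes are often assigned, were measured for 14 of 16 genes. HSPB1 and AHSA1 were missing. HSPA1A, among the 14, lay between 24.0 and 36.3, below the median of every array, and carries little information. Against androgen 3 fell and 0 rose, also at an unadjusted p under 0.05, and the median was -0.10. DNAJB1, a DNAJ partner of HSP70, read 619, 661 and 724 with androgen plus celastrol and 977, 966 and 989 with androgen, and fell by 0.55 ± 0.08 (limma adjusted p = 0.00225). HSPA8, the constitutive HSP70, fell by 0.48 (adjusted p = 0.00282) and DNAJA1, another DNAJ partner, by 0.35 (adjusted p = 0.0320). DNAJA1 lost its call in 6 of 9 fits without 1 array, all but those without androgen plus celastrol array 3 or vehicle array 2 or 3. HSPH1, a nucleotide exchange factor of the HSP110 family, changed by -0.18 (adjusted p = 0.333) and HSP90AA1 by 0.05 (adjusted p = 0.723). For androgen plus celastrol against vehicle 2 fell, DNAJB1 by 0.56 (limma adjusted p = 0.00129) and HSPA8 by 0.49 (adjusted p = 0.00147). At an unadjusted p under 0.05 in limma, 6 were lower and 1 higher there, and the median was -0.17. Many of all genes pass this cutoff against vehicle. TOMM20, at an unadjusted limma p of 0.0417, ranked 3969 by p among all 12165 genes, both directions together. BAG3, a co-chaperone of HSP70, rose with androgen against vehicle, by 0.45 (adjusted p = 0.0461). With androgen plus celastrol against vehicle it was the 1 that rose, by 0.53 (adjusted p = 0.0136). The first of these calls was lost in 7 of 9 fits without 1 array, all but those without vehicle array 2 or 3.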

How the data were processed

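RNA of 9 LNCaP cultures was measured on Affymetrix human genome arrays. The authors deposited linear intensities. Per the submitters' processing notes these come from RMA, of which the sources used here give neither version nor probe definitions. Such normalization removes differences in total RNA. Here log2 was taken of the deposited intensity with a pseudocount of 0. The annotation table pairs 19724 of 22215 probe sets with a single gene, and each of the 12165 genes was represented by its probe set with the highest mean.

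All 9 arrays were fitted with limma 3.58.1 in R 4.3.3 (lmFit and eBayes, 6 residual and 2.70 prior degrees of freedom), and p-values were adjusted by Benjamini-Hochberg over all genes or all probe sets, with a threshold of 0.05. Standard errors of log2 differences had a median of 0.13, and the number of arrays limits the precision. Scan dates were not used, so array batches were not tested.

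Members and lists were chosen with earlier results of these data known. All members are named. Per other list and comparison, up to 3 genes with the largest change past the threshold and up to 2 bright genes not past it are named, besides HSPA9, LONP1, CLPP, CCT6B, PFDN2, ACTB, TUBB, HSPH1 and DNAJB1, and not every value of theirs is printed. TUBG1 and TBCE (against androgen), VBP1, GNB1, TRAP1 and TIMM17A (against vehicle) were named after their values were seen, because few genes of their list moved. HSPA1A was named for its low intensity.

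Deviations from the group means correlated between same-numbered androgen and vehicle arrays at 0.40, 0.37 and 0.63. Arrays 1 and 2 also correlated crosswise, at 0.41 for androgen array 1 with vehicle array 2 and 0.30 for androgen array 2 with vehicle array 1. These correlations therefore do not settle whether the arrays were paired by number, and a replicate block was fitted as an alternative. With the replicate block, over all arrays or over the androgen and vehicle arrays alone, androgen against vehicle again called 0 of the 10 genes. Values printed for this comparison come from the fit without the block unless the block is named. Same-numbered arrays of the other pairs of groups had correlations of -0.09, 0.21 and -0.19 for androgen plus celastrol with androgen and -0.25, 0.11 and -0.29 with vehicle. They were not taken as paired. Promoter windows come from RefSeq, GRCh38.p14, and were matched by symbol for 9 of the 10 genes.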

Additional observations from a re-analysis of the deposited data

How the results depend on the processing

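The results for the 10 genes were recomputed under 21 alternatives in 3 comparisons. Of 630 values 592 stayed on their side of the threshold, 26 no longer passed, 12 passed newly and 0 reversed a called direction. CCT2 passed throughout in both celastrol comparisons. CCT3 and CCT6A passed in all 21 against androgen and in all except 1 against vehicle. The CCT4 call was lost in 9 alternatives against androgen and in 11 against vehicle. TCP1 was lost against androgen with the mean of its 3 probe sets (limma adjusted p = 0.0831). Against vehicle it was lost in 3 alternatives. These were the fit without androgen plus celastrol array 2 (adjusted p = 0.0525) and the 6 arrays compared, without (adjusted p = 0.0532) and with the replicate block (adjusted p = 0.178). HSPD1 rose against androgen in 6 alternatives, among them quantile normalization (adjusted p = 0.0375) and eBayes with a trend (adjusted p = 0.00326).

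The number of the 10 genes called ranged over the fits without 1 array from 4 to 6 against androgen for androgen plus celastrol, from 3 to 5 against vehicle, and stayed at 0 for androgen against vehicle. It was 3 against vehicle without androgen plus celastrol array 2. For the 16 probe sets the ranges were 4 to 8 and 4 to 8, and 0 to 0 for androgen against vehicle, with 4 reached against androgen without androgen array 1 and against vehicle without vehicle array 2. Over all genes the ranges were 1306 to 2667, 2285 to 2935 and, for androgen against vehicle, 1078 to 1836. With only the 6 arrays of the groups compared, 3 genes and 4 probe sets were called for androgen plus celastrol against vehicle. With the replicate block on all 9 arrays, 4 of the 10 genes were called against androgen and 4 against vehicle, CCT4 being the one lost. With the replicate block on 6 arrays, 3 probe sets were called against androgen, and 1 gene, 1 probe set and 1099 of all genes against vehicle. These fits hold fewer samples. The share of upward calls over all genes for androgen against vehicle was 55.1%, 69.1% with each array's median subtracted and 47.6% after quantile normalization. For androgen plus celastrol against vehicle it was 57.1%, 66.2% and 47.7% under these settings.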
